A study of Solanum lycopersicum with 2 samples.

Results

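The SlWUS peaks on tomato chromosome 6 are all intervals of the deposited peak list that lie on the sequence SL4.0ch06, 4490 of 65452 peaks. DNA affinity purification sequencing (DAP-seq) mixes a tagged protein with fragmented genomic DNA in the tube and sequences the fragments that stay bound. The series holds 1 library for WUSCHEL (SlWUS) and 1 input library. Both were made from genomic DNA of the tomato (Solanum lycopersicum) cultivar Ailsa Craig. Both sets of labels enter flower abscission zone under cell line and Halo, the name of a protein tag, under cell type, and describe plants grown in a greenhouse with 16 h of light at 25°C and 8 h of dark at 15°C. No mutant or treatment is named for either library. Results rest on the peaks called in the SlWUS library, and no values of the input were read here. Whether the peak caller used the input for the background under each peak is not given in the sources used here.

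WUSCHEL is a homeodomain transcription factor that keeps stem cells in plant meristems, in a feedback loop with the peptide CLV3. The DNA in this assay carries no chromatin proteins, so a peak marks DNA that the protein can bind and not binding in the plant. Tomato chromosomes have gene-rich, weakly condensed ends and a repeat-rich, condensed stretch around the centromere, and their arms can differ in length. Chromosome 6 carries, among other known loci, the nematode-resistance locus Mi and the flowering regulator SELF-PRUNING. The peak list names no gene and no centromere, and the SL4.0 sequence and its annotation were not analysed here, so no sequence is shown, no peak is assigned to a gene, and the sides of the chromosome are called left (the origin of the coordinates) and right. There was 1 library, so no test between samples could be made. Intervals given below are exact 95% intervals that cover counting error only. Where peaks cluster they understate the error, and ranks among the 12 numbered chromosomes are descriptions of this library.

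Chromosome 6 was the shortest numbered chromosome and the one with the most peaks for its length. Its span, from the origin to the end of its last peak, was 47.2 Mb, against 53.3 Mb on chromosome 2 and up to 90.8 Mb on chromosome 1. It had 95.03 peaks per Mb (Poisson interval 92.3 to 97.9), against 84.1 per Mb over the other 11 chromosomes, a ratio of 1.13 (1.10 to 1.17). Single chromosomes among the other 11 ran from 76.6 on chromosome 12 to 94.1 (91.8 to 96.5) on chromosome 3, so chromosomes 6 and 3 are not separated by counting error. Chromosome 6 held 6.86% of the peaks on 6.12% of the span. At the density of the other 11 it would have held 3971 peaks, 518 fewer than it did. Peak intervals covered 3.59% of its length, against 2.81% to 3.58% on the other 11 chromosomes.

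The depth behind a single peak was alike on chromosome 6 and elsewhere. The number of fragments over the summit, here called the pileup, had a median of 30 (quartiles 23 and 42, range 12 to 815) on chromosome 6. Over all 65446 peaks of the 12 chromosomes the median was 30 (quartiles 23 and 43). Counting error alone puts 30 fragments between 20.2 and 42.8, and ordinary peaks cannot be ordered at this depth. The median background, the number of fragments the caller expected at the summit, was 6.11 fragments both on chromosome 6 and on the other 11.

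Along chromosome 6 the peaks lay in 2 dense flanks of very unequal length around a sparse core. The limits were set on windows of 1 Mb: the core is the longest run whose running mean of 5 windows stayed under the mean window of all 12 chromosomes, 84.4 peaks. It ran from 4 to 29 Mb. The left flank of 4 Mb held 479 peaks at 120 per Mb (109 to 131), the core of 25 Mb held 1602 peaks at 64.1 per Mb (61.0 to 67.3), and the right flank of 18.2 Mb held 2409 peaks at 132 per Mb (127 to 137). The right flank was thus 38.6% of the span and held 53.7% of the peaks. These parts were drawn from the peaks themselves, so their contrast in density is a description. A stricter limit, the median window of 73.0 peaks, had been planned for these parts and gave a core of 15 windows, from 6 to 21 Mb, which is 31.9% of the 47 full windows. That share was the sixth lowest of the 12 chromosomes, from 20% on chromosome 3 to 58.2% on chromosome 7. On several chromosomes the stricter limit cut the sparse stretch into pieces, and the mean window was used for this reason, after both had been seen.

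**Figure D1:**
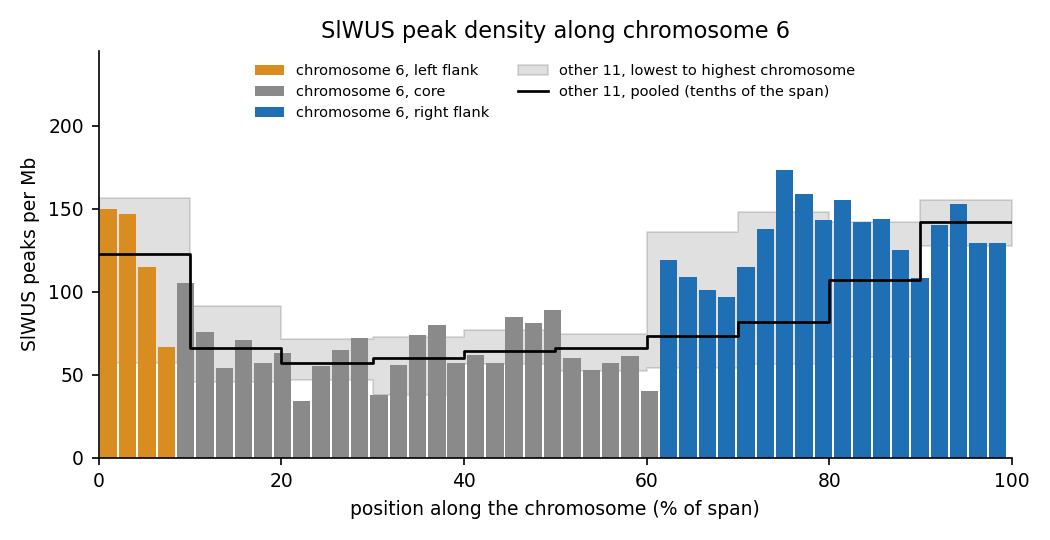
SlWUS peaks per Mb along chromosome 6, with bars for its 47 full windows of 1 Mb and position as percent of the span. The black line gives the other 11 chromosomes pooled in bins of 10% of the span, and the grey band their lowest and highest chromosome. The right flank starts earlier than on the pooled chromosomes and holds windows of 97 to 173 peaks, whereas the core holds windows of 34 to 105.

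The excess of chromosome 6 sat in the inner part of its right side and not at its tips. In the last 10% of the span it had 133 peaks per Mb (123 to 144), the second lowest of the 12 chromosomes, against 142 on the other 11. In the first 10% it had 116 per Mb (106 to 126), against 123 on the other 11. From 70% to 80% of the span it had 144 per Mb (134 to 155), against 81.5 on the other 11, and from 80% to 90% it had 141 (130 to 152), against 107. From 60% to 70% it had 97.8 per Mb (89.1 to 107), against 73.4. In each of these 3 bins chromosome 6 was the second highest of the 12 chromosomes. The bins from 60% to 80% held 79.3% of the net difference in density, and the bin from 80% to 90% held 30.9%. Bins in which chromosome 6 was below the other 11, both tips among them, count as negative, so these shares are not parts of a whole. Between 10% and 60% of the span chromosome 6 ran from 59.3 to 72.4 per Mb, and the other 11 pooled from 57.2 to 66.4.

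Zones of fixed relative size gave the same shape with no limit taken from the peaks. The outer 10% at each end had a density of 124 per Mb with 1175 peaks, and the zone between 30% and 70% of the span had 72.8 per Mb with 1375 peaks, a ratio of 1.71 (1.58 to 1.85). That ratio was the second lowest of the 12 chromosomes. Only chromosome 2 had a lower one, 1.15, and the highest was 2.43 on chromosome 11. The low ratio went with a rather sparse distal zone, rank 10 of 12 in density, and with a central zone of rank 2. The last 30% of chromosome 6 held 139 peaks per Mb and the first 30% held 80.5, a ratio of 1.73 (1.61 to 1.86). This ratio had rank 3 of 12, with chromosome 2 highest at 2.70, and the lowest was 0.820 on chromosome 5. The last 30% was the second densest of the 12, after chromosome 2 with 140 per Mb.

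More of the windows of chromosome 6 were dense than on the other 11 pooled. The classes below are set by the same counts of peaks that give the density, so the means within a class are bounded by the limit and a difference in density tends to fall on the share of dense windows. The split is a description, and the bins of fixed position above do not have this limit. Of its 47 full windows of 1 Mb, 21 held at least 100 peaks, which is 44.7% (Clopper-Pearson interval 30.2 to 59.9%), against 201 of 719 windows, or 28.0% (24.7 to 31.4%), on the other 11. Within dense windows the mean was 133 peaks on chromosome 6 and 137 on the other 11. Within the remaining windows it was 63.9 on chromosome 6 and 63.1 on the other 11. The difference of the window means was 11.2 peaks per Mb, of which the share of dense windows made 11.97, the density within dense windows -1.27 and the density within the other windows 0.511. Adding flanks and core in the same way, the flanks were 47.1% of chromosome 6 and 32.7% of the other 11. Their density was 130 per Mb (125.1 to 135) on chromosome 6 and 129 (127 to 130) on the other 11. Core density was 64.1 per Mb (61.0 to 67.3) on chromosome 6 and 62.4 (61.7 to 63.1) on the other 11. The share of flanks made 9.48 of the 10.98 peaks per Mb of difference, or 86.4%. Put together with the flank share of the other 11, the 2 densities of chromosome 6 give 85.6 peaks per Mb. Flanks and core were likewise drawn from the counts of peaks, with a limit chosen after both had been seen, so this share is largely fixed by the way they were drawn and does not separate length from density as a source of the excess.

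In absolute length, with the mean window as the limit, the flanks of chromosome 6 were ordinary and its core was short. Its flanks measured 22.2 Mb, rank 5 of 12, in a range from 13.8 Mb on chromosome 10 to 30.2 Mb on chromosome 3. Its core of 25 Mb was the shortest of the 12, against 31 Mb on chromosome 2 and up to 61 Mb on chromosome 1. With the median window as the limit its core of 15 windows was longer than that of chromosome 3, with 13. Chromosome 3, closest in density, had flanks of 46.4% of its span, spread over 10 Mb on the left and 20.2 Mb on the right. Chromosome 2 had no left flank and a right flank of 22.3 Mb, 41.9% of its span. Over the 12 chromosomes the flank share and the density had Pearson's r = 0.832 and Spearman's rho = 0.762. The span and the density had r = -0.359 and rho = -0.594. These 12 points come from 1 library, and the flanks were drawn from the same peaks as the density. Chromosome 9 had a flank share of 40.1% with 79.9 peaks per Mb. Both its flanks, with 114 per Mb, and its core, with 57.4 per Mb, were the sparsest of the 12.

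**Figure D2:**
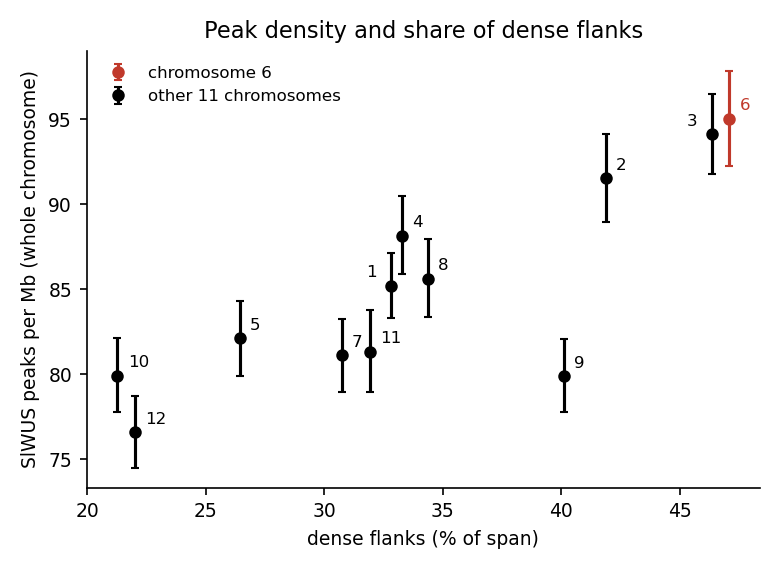
Peaks per Mb of each numbered chromosome (vertical, with exact Poisson 95% intervals of counting error) against the share of its span in dense flanks (horizontal, percent). Chromosome 6, in red, is at 47.1% and 95.03 peaks per Mb, next to chromosome 3 at 46.4% and 94.1. Chromosomes 10 and 12, with the smallest flank shares, had 79.9 and 76.6 peaks per Mb.

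The fullest window of chromosome 6 held 173 peaks (148 to 201) and lay from 35000001 to 36000000, the eleventh fullest of 766 windows. The next were 159 peaks from 36000001 to 37000000 and 155 from 38000001 to 39000000, so all 3 lay in the inner right flank and not at the tip. From 33000001 to 47000000 each of 14 windows in a row held at least 100 peaks, 1953 in all. This run was 29.6% of the span, second to chromosome 2 with 39.4%. At the tips, the first Mb held 150 peaks, rank 3 of 12 chromosomes, and the last Mb before the end of the final peak held 130, which shared rank 5. The emptiest windows held 34 peaks from 10000001 to 11000000, 38 from 14000001 to 15000000 and 40 from 28000001 to 29000000, all in the core. Even so, the emptiest window of chromosome 6 held more peaks than the emptiest of any other chromosome, which ran from 0 on chromosome 11 to 31 on chromosome 3. The interval of its 34 peaks, 23.6 to 47.5, holds the value of chromosome 3. A minimum also tends to be higher over fewer windows, and chromosome 6 had 47 full windows, against 53 to 90 on the others.

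The share of peaks over 10-fold was low on chromosome 6, and the number of such peaks per Mb was close to that of the other 11. Its median fold enrichment, the authors' value for the pileup over the background, was 4.29 (quartiles 3.37 and 6.04), the lowest of the 12 medians, which ran from 4.30 to 4.38 on the other 11. The interval of the chromosome 6 median, 4.22 to 4.35, holds the pooled value of the other 11, 4.33. Enrichment passed 10-fold in 366 of its peaks, or 8.15% (7.37 to 8.99%), against 9.23% of all peaks and 9.31% (9.08 to 9.55%) on the other 11. This was the lowest share of the 12 chromosomes, below chromosome 11 with 8.50% and far from chromosome 12 with 10.03%. At the share of the other 11, 418 peaks of chromosome 6 would have passed. Per Mb, chromosome 6 had 7.75 peaks over 10-fold and the other 11 had 7.83, a ratio of 0.990 (0.888 to 1.10), so an excess in density was not detectable in these peaks.

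Ranked by fold over all peaks, the density ratio of chromosome 6 to the other 11 was highest in the weak classes. It was 1.16 (1.09 to 1.23) in the weakest 25% of peaks, up to 3.38-fold, and 1.16 (1.09 to 1.23) from there to the median. It was 1.14 (1.07 to 1.21) up to the 75th percentile and 1.11 (1.03 to 1.21) up to the 90th. Above that it was 1.06 (0.916 to 1.22) up to the 95th, 0.953 (0.804 to 1.12) up to the 99th and 0.972 (0.684 to 1.34) in the strongest 1%, which held 39 peaks of chromosome 6. The intervals of the strong classes overlap those of the weak ones, and a difference between classes was not tested. Other limits gave ratios above 1. The ratio was 1.10 with peaks of at least 5-fold, a broad set of 24838 of the 65446 peaks. It was 1.06 with the 10% of peaks of highest pileup and 1.04 with the 10% of highest −log10 q. The last 2 values lie within the interval of the peaks over 10-fold, 0.888 to 1.10. They are given without intervals of their own, so an excess beyond counting error is not shown by them. By pileup, chromosome 6 had rank 4 of 12 in density.

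**Figure D3:**
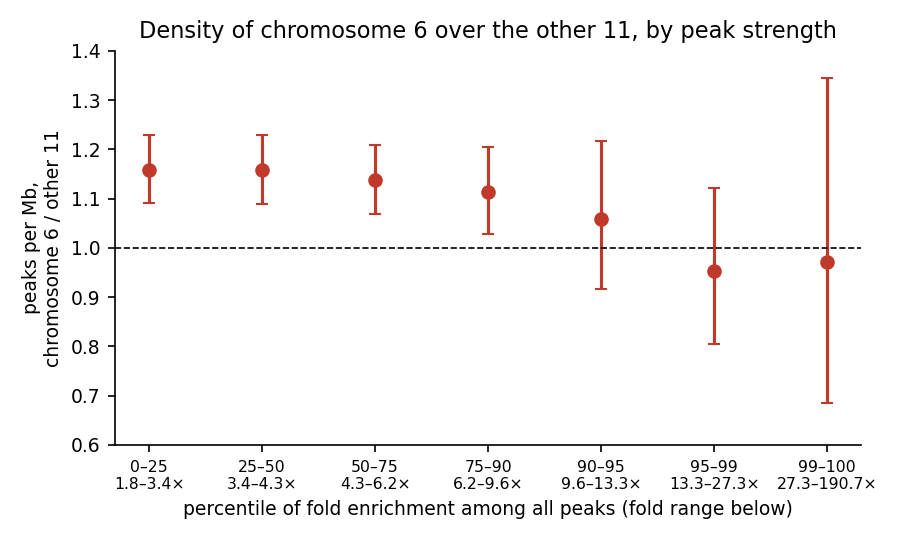
Peaks per Mb on chromosome 6 divided by peaks per Mb on the other 11 chromosomes (vertical) in 7 classes of fold enrichment, set by percentiles over all peaks (horizontal). Bars are exact 95% intervals of counting error, and the dashed line marks equal density. The ratio is 1.16 in both classes below the median and 0.972 in the strongest 1%.

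The share of strong peaks was low in both flanks and core of chromosome 6. In the flanks 216 of 2888 peaks passed 10-fold, 7.48% (6.55 to 8.50%), against 8.11% (7.80 to 8.42%) on the other 11. In the core 150 of 1602 passed, 9.36% (7.98 to 10.9%), against 10.5% (10.2 to 10.9%) on the other 11. The core value was the lowest of the 12 chromosomes and the flank value the second lowest, and each interval overlaps that of the other 11. Flanks have fewer strong peaks among their peaks than cores, and 64.3% of the peaks of chromosome 6 lay in flanks, against 50.02% on the other 11. With the flank share of chromosome 6, the other 11 would have had 8.97% over 10-fold, which is between the 8.15% of chromosome 6 and their own 9.31%.

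Peaks over 20-fold numbered 80 on chromosome 6, 1.78% (1.42 to 2.21%) of its peaks, against 1.99% of all peaks. Of these, 5 lay in the left flank, 38 in the core and 37 in the right flank. Peaks over 50-fold numbered 11, 0.245% (0.122 to 0.438%), against 0.252% of all peaks, with 4 in the flanks and 7 in the core. On the other 11 chromosomes 31 such peaks lay in flanks and 123 in cores, so most were in the core there too. A single peak passed 100-fold, 0.0223% (0.000564 to 0.124%), against 0.0535% of all peaks, a value within that interval. Chromosomes 6 and 8 had the lowest maximum folds of the 12, 101 on chromosome 6 and 92.9 on chromosome 8, and the median maximum of the other 11 was 138. A maximum tends to rise with the number of peaks, and chromosome 6 had the second fewest, 4490.

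The strongest peak of chromosome 6 lay in its emptiest window. It ran from 10270302 to 10270794 in the core and had 101-fold enrichment, 815 fragments (760 to 873) over a background of 7.06, and a width of 493 bp. It was also the peak with the most fragments on the chromosome, and ranked 34th by fold and 21st by pileup among all peaks. Its nearest neighbours, 16687 bp and 5830 bp away, were of ordinary strength, 3.57- and 5.30-fold. The second strongest, 89.7-fold with 637 fragments (588 to 688), lay from 18432901 to 18433420 in the core. The third, 87.7-fold with 698 fragments (647 to 752), lay near the left tip from 647135 to 647723. The counting intervals of these 3 as fold were 94.4 to 108, 82.9 to 97.0 and 81.3 to 94.4. They overlap among all 3, by very little between the first and the third, with the background taken as exact.

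A further 4 of the 10 strongest were also in the core. A 79.8-fold peak from 6783995 to 6784437 had 435 fragments over a background of only 4.47. A 75.7-fold peak from 11776390 to 11777338 had 397 fragments and was 949 bp wide. A 61.3-fold peak from 15553549 to 15553980 had 410 fragments, and a 62.9-fold peak from 21491438 to 21491931 had 489. These places are 14.4%, 24.9%, 32.9% and 45.5% along the span. Between 45.5% and 68.3% of the span no peak passed 50-fold.

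The other 3 of the 10 strongest lay in the left flank, the core and the right flank. A 58.0-fold peak from 345989 to 346664 had 538 fragments over a background of 8.29 and lay in the left flank, 730 bp from a 5.05-fold neighbour. A 56.7-fold peak from 11218416 to 11219466 in the core had 287 fragments over the lowest background in the list, 4.08, and was 1051 bp wide. Its neighbour 5127 bp upstream was itself 29.8-fold. The strongest peak of the right flank, from 32386763 to 32387201, was 53.8-fold with 499 fragments. The eleventh peak over 50-fold, from 32279481 to 32280267 at 50.9-fold, lay in the same part of the right flank. Both are at the inner edge of that flank, 68.5% and 68.3% along the span, and no peak further right passed 50-fold. The limit matters here: a 47.4-fold peak (42.6 to 52.6) from 41053202 to 41053767 and a 47.1-fold peak (42.2 to 52.4) from 46240214 to 46240768 lay at 86.9% and 97.9% of the span, and their counting intervals reach past 50-fold. The 11 peaks over 50-fold had a median pileup of 489 fragments and a median width of 520 bp.

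**Figure D4:**
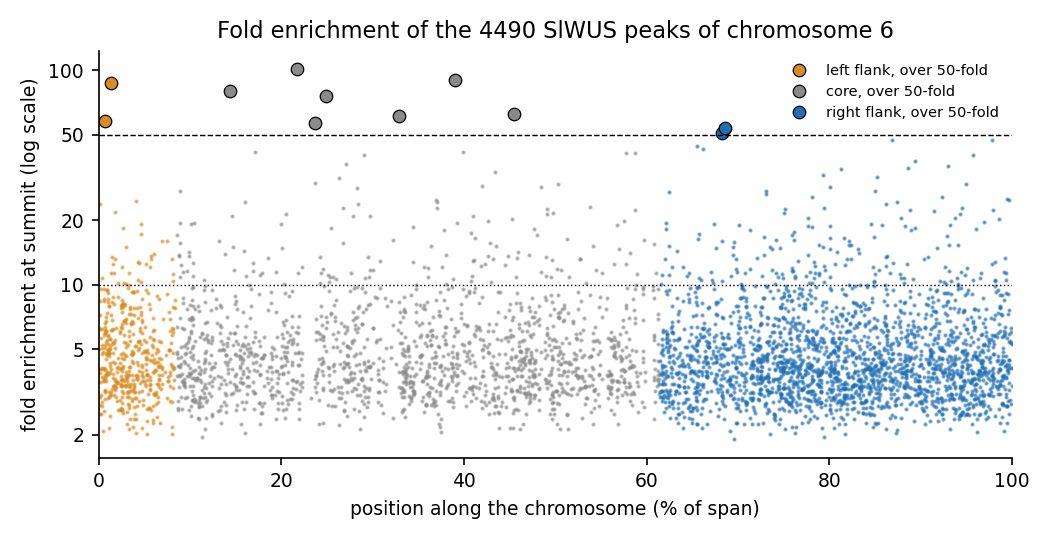
Fold enrichment (log scale) of the 4490 peaks of chromosome 6 against position as percent of the span, coloured by part. Large points are the 11 peaks over 50-fold, of which 7 lie in the core (123 of 154 on the other 11), and the dashed and dotted lines mark 50- and 10-fold. The cloud of ordinary peaks is densest on the right, where the highest fold is 53.8.

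Few peaks over 20-fold had another such peak within 10 kb. The 80 peaks over 20-fold lay a median of 335 kb apart, and 4 pairs of them in a row were within 10 kb. These values were not compared with those of other chromosomes or of randomly placed peaks. Whether strong peaks lie closer together or further apart than scattered peaks was therefore not tested. The closest pair, 1278 bp apart, lay in the right flank from 34534595 to 34535684 (26.6-fold) and from 34535930 to 34536328 (27.5-fold). The pair in the core from 27729667 to 27730091 and from 27733978 to 27734445 had 22.3- and 41.1-fold. The remaining pairs were the one at 11218416 named above and one from 17473964 to 17474360 (24.9-fold) and from 17483845 to 17484245 (22.8-fold).

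Peaks of chromosome 6 were as wide as elsewhere in the median, with more very wide ones. The median width was 314 bp (quartiles 254 and 426), against 313 bp (252 and 420) on the other 11. Peaks of at least 800 bp numbered 203, 4.52% (3.93 to 5.17%), against 3.68% (3.53 to 3.83%) on the other 11. The single other chromosomes ran from 3.40% on chromosome 10 to 4.20% on chromosome 3, a value within the interval of chromosome 6. Chromosome 6 thus had the highest share, not separated from chromosome 3 by counting error. It was 6.05% (4.09 to 8.58%) in the left flank, 2.996% (2.22 to 3.95%) in the core and 5.23% (4.38 to 6.20%) in the right flank. On the other 11 it was 4.68% (4.28 to 5.11%), 2.70% (2.52 to 2.89%) and 4.65% (4.37 to 4.95%) in the same parts. Each interval of chromosome 6 overlaps that of the same part of the other 11. The order depended on the limit, since with limits of 600 bp and of 1000 bp chromosome 6 had 10.4% and 1.76% and came after chromosome 3 with 10.8% and 1.78%.

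Flank peaks were wider than core peaks, on chromosome 6 and elsewhere. On chromosome 6 the median was 320 bp (interval 315 to 328) in the flanks and 300 bp (294 to 307) in the core, and on the other 11 it was 322 bp in the flanks and 304 bp in the core. The core median was the lowest of the 12 chromosomes, which ran from 302 to 310 bp on the other 11. At like depth the gap on chromosome 6 was small among weak peaks. Among peaks of 11 to 22 fragments the median was 262 bp in the flanks and 257 bp in the core, and from 23 to 29 fragments 279 bp in the flanks and 264 bp in the core. Among peaks with 30 to 42 fragments it was 314 bp in the flanks and 296 bp in the core, and among those with 43 to 99 fragments 400 bp in the flanks and 364 bp in the core. From 100 fragments up it was 496 bp in the flanks and 439 bp in the core. The widest peak measured 2389 bp, from 41997480 to 41999868 in the right flank, with 7.42-fold at its summit and 55 fragments. The second widest, 2303 bp from 36530912 to 36533214 in the right flank, had 8.16-fold. Neither was among the strong peaks.

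Neighbouring summits were closer on chromosome 6 than on the other 11 pooled. The median distance was 5148 bp (interval 4837 to 5450), against 5813 bp (5727 to 5892) on the other 11 and 5372 to 6389 bp on single chromosomes. The interval of chromosome 6 holds the lowest of these, that of chromosome 2. Among distances of at least 500 bp, 25.0% (1116 of 4466, interval 23.7 to 26.3%) were under 2000 bp, against 23.2% on the other 11. Chromosome 3 had 24.5%, which is within that interval. Among the stronger peaks the share under 2000 bp was lower on chromosome 6 than on the other 11. With peaks of at least 5-fold alone it was 7.92% on chromosome 6 and 8.72% on the other 11. With peaks of −log10 q of at least 10 it was 10.3% on chromosome 6 and 11.3% on the other 11. These sets held 1667 and 2160 peaks of chromosome 6. No intervals were computed for their shares, so a turned order beyond counting error is not shown.

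By part, the distances of chromosome 6 were close to those elsewhere. The median was 4257 bp (3964 to 4539) in its flanks, against 4159 bp (4071 to 4234) in the flanks of the other 11. In its core it was 7701 bp (7052 to 8372), against 8394 bp (8238 to 8566) in the cores of the other 11, and no other chromosome had a shorter core median. In windows of 100 to 124 peaks per Mb the median was 4747 bp on chromosome 6 and 4797 bp on the other 11, and in the next class up, below 150 peaks, it was 4124 bp on chromosome 6 and 4066 bp on the other 11. In windows of 50 to 74 it was 7960 bp (7145 to 9208) on chromosome 6 and 8818 bp (8627 to 9080) on the other 11. In windows of 25 to 49 it was 9359 bp (6934 to 15313) on chromosome 6 and 11778 bp (11112 to 12450) on the other 11. Chromosome 6 had the longer distances in windows of 75 to 99, with 6990 bp (5826 to 8035) against 6452 bp (6229 to 6672) on the other 11, and in those of 150 or more, with 3772 bp (3376 to 4182) against 3465 bp (3347 to 3586). In all 6 classes the intervals of chromosome 6 and the other 11 overlap, and the direction varied between classes.

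**Figure D5:**
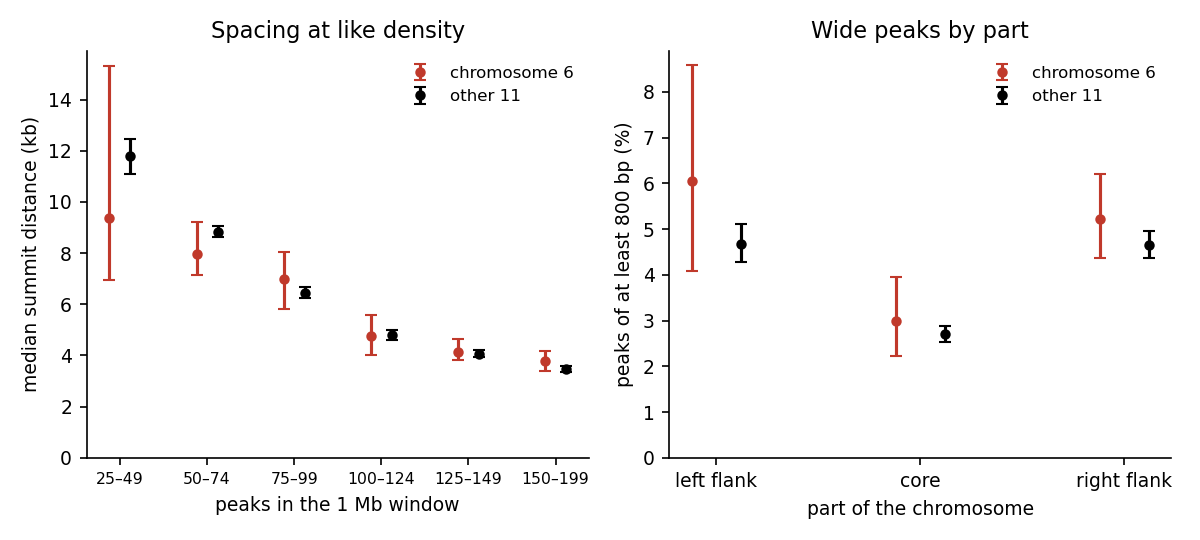
Left, median distance between neighbouring summits in kb, in 1 Mb windows grouped by their number of peaks. Right, the share of peaks of at least 800 bp by part of the chromosome, in percent. Chromosome 6 is in red left of the other 11 in black, bars are exact 95% intervals, and in the class below 150 peaks the medians are 4124 bp on chromosome 6 and 4066 bp on the other 11.

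The most crowded 20 kb window of chromosome 6 held 10 peaks, from 320001 to 340000 near the left tip, with a median fold of 3.92 and none over 6.38-fold. It was the 1 window of chromosome 6 with at least 10 peaks, 0.0423% of its windows, against 25 windows, or 0.0690%, on the other 11. Windows with at least 5 peaks were more frequent on chromosome 6, 8.85% (209 windows) against 7.03%. Those with at least 8 peaks made 0.550% (13 windows) of chromosome 6 and 0.634% (230 windows) of the other 11. No intervals were computed for these shares, and 13 windows do not show a difference beyond counting error. Of the 209, 178 lay in the flanks, which make 47.1% of the span and were themselves drawn from the counts of peaks. Windows without a peak were 26.3% of chromosome 6 and 30.1% of the other 11.

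Long stretches without a peak lay in the core. The longest ran 467176 bp from 10515995 to 10983170, the next 401789 bp from 28267849 to 28669637 and the one after it 228256 bp from 10983433 to 11211688. The longest and the shortest of these are separated by 1 weak peak, from 10983171 to 10983432, with 2.96-fold and 14 fragments (7.65 to 23.5). That peak was thus the only one in 695694 bp. The strongest peak of the chromosome lay to the left of this stretch and the pair of 29.8- and 56.7-fold to its right, each with ordinary peaks in between. The longest stretch was shorter on 4 chromosomes, down to 363987 bp on chromosome 3, and chromosome 11 had the longest, 1177266 bp. The share of distances over 50 kb was 2.47% on chromosome 6 and 3.19% on the other 11. The mappability of these stretches was not tested.

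The background was high under few peaks of chromosome 6, as on some other chromosomes. It reached at least 2 times the median of all peaks at 2 of its peaks, 0.0445%, against 0.238% on the other 11. Single chromosomes ran from 0.0226% on chromosome 11 to 0.406% on chromosome 10, with 0.056% on chromosome 5 and 0.0783% on chromosome 12. The highest value, 13.1 fragments, was under a peak from 33510990 to 33511479 with 7.94-fold. The lowest value of the list, 4.08 fragments, was found under 5.79% (5.13 to 6.51%) of the peaks of chromosome 6, the lowest share of the 12, against 7.71% (7.497 to 7.92%) on the other 11. In the flanks it was 3.57% on chromosome 6 and 3.93% on the other 11. In the core it was 9.80% (8.39 to 11.4%) on chromosome 6 and 11.5% (11.1 to 11.9%) on the other 11. The median background was 6.28 fragments in the flanks and 5.88 in the core of chromosome 6. A fold is larger over a lower background at the same pileup, and the part of the background in the low share of peaks over 10-fold was not tested.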

How the data were processed

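A narrowPeak list of 1 SlWUS DAP-seq library was used. The submitters' processing notes name Bowtie2 2.2.5, MACS2 2.1.2 and ChIPseeker. Neither their settings nor the use of the input is given in the sources used here. Per the sequence names, positions are on SL4.0, and they are counted from 1. The fold ratio, the −log10 p and −log10 q values and the score were made by the authors' peak caller and used as deposited, except the score, which was not used. The lowest −log10 q was 1.32.

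Pileup and background were solved from the deposited fold, (pileup + 1) / (background + 1), and p, a Poisson upper tail above the pileup. A whole pileup was found for 65452 of 65452 peaks (tolerance 0.001 on −log10 p, largest error 0.000117). Peaks were placed by summit, and a span is the end of the last peak, as no table of chromosome lengths was used. Densities carry exact Poisson intervals, shares Clopper-Pearson intervals, medians order-statistic intervals. Fragments may not be independent molecules.

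Peaks named are the 10 strongest of chromosome 6, its fullest and widest peaks, windows and stretches; other peaks named were chosen after their values were seen. No gene could be named. The members, lists and measures were chosen with earlier results of these data known. Tested on simulated data, the method returned the pileup of 100% of 64991 peaks and the limits of a core to within 2 Mb. The simulated folds came from the formula used to solve them, so this checks the solving and not the formula. Simulated flanks had sharp edges and evenly scattered peaks, so the limits of real cores may be less sure. An error of 2 Mb is large beside the left flank of 4 Mb. Intervals were computed with scipy 1.17.1 under Python 3.11.15, tables with pandas 2.3.3 and numpy 2.4.6, and plots with matplotlib 3.10.9.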

Additional observations from a re-analysis of the deposited data

How the results depend on the processing

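Of 52 alternative settings of 13 results, 26 left the value within its counting interval. The density ratio of chromosome 6 to the other 11 ran from 1.10 with peaks of at least 5-fold to 1.16 against the median chromosome, and 4 other settings lay between. With peaks of at least 5-fold or of −log10 q of at least 10, chromosome 6 was second in density, with 35.3 and 45.7 peaks per Mb, against 36.5 and 47.0 on chromosome 3. The distal over central ratio was 1.90 with outer zones of 5% and 1.56 with 20%. The right over left ratio was 1.58 with peaks of at least 5-fold, 1.51 with outer parts of 20% and 1.53 when the span was cut at its middle. The core share by the median window was 31.9% on chromosome 6 and 36.6% on the other 11. The order turned with stronger peaks. It was 51.1% against 34.1% on the other 11 with peaks of at least 5-fold, and 51.1% against 43.25% with the stricter q. A running mean of 3 windows gave 31.9% against 31.4%. The mean window gave 53.2% against 67.9%, and this share of chromosome 6 was the lowest of the 12 chromosomes. With a running mean of 3 windows and the mean limit chromosome 3 had the lowest share. With a limit of 75 peaks dense windows made 57.4% of chromosome 6, against 69.2% on chromosome 3. With a higher limit they made 29.8% of chromosome 6, second to chromosome 2, and with windows shifted by 0.5 Mb the share of chromosome 6 was 37.0%, rank 3 of 12.

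With peaks of −log10 q of at least 10, which removes weak peaks by construction, 16.9% of chromosome 6 passed 10-fold (19.1%), the median fold was 6.13 (6.26), the median width 361 bp (359), the median distance 12108 bp (13170) and the share of wide peaks 7.59% (6.18%). Here and below, values in parentheses are those of the other 11. With peaks of at least 5-fold the median width was 379 bp (374), the median distance 16338 bp (17480) and the median background 6.01 fragments (5.89). Between the quartiles of pileup the median width was 293 bp (292), and between edges the median distance was 4771 bp (5439). The top 10% by pileup held 9.31% of chromosome 6, against 9.91% on the other 11. The share of short distances was below that of the other 11 with the stronger peaks, at 7.92% and 10.3%. Neither value has an interval, and the cause was not tested. It was 21.8% (19.9%) with a longer minimum distance and 9.16% (8.65%) under 1000 bp. Wide peaks made 10.4% (9.87%) at 600 bp and 1.76% (1.46%) at 1000 bp. The alternatives for peaks over 10-fold and for wide peaks were chosen after the data were seen. No paired analysis was possible because there was 1 library and no test. The depth limits single peaks of median strength and the counts over 50-fold.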
